A study of Mus musculus with 13 samples.

Results

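The genes described here make ribosomes in the nucleolus. They were taken by name from the deposited normalised table: symbols beginning with Nop, Nol, Utp or Rrp and a digit, symbols beginning with Polr1, Imp3 and Imp4, and 5 further genes (Fbl, Ncl, Npm1, Dkc1 and Bop1), with Nol9 left out. This gave 46 members among the 48709 genes of the count table. By known role they comprise 5 subunits of RNA polymerase I, 3 proteins of the box C/D small nucleolar ribonucleoproteins (snoRNPs), 2 of the box H/ACA snoRNPs, 22 factors of the small ribosomal subunit, 10 of the large subunit, 2 abundant nucleolar phosphoproteins (Ncl and Npm1) and 2 genes that only the name brings in (Nol3 and Nol4l). Nol4 and Utp14b-ps1 match the name but had 0 reads in all 13 libraries and are not in the normalised table.

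RNA polymerase I transcribes the long ribosomal RNA precursor inside the nucleolus. On that precursor, box C/D snoRNPs guide methylation of ribose and box H/ACA snoRNPs guide the change of uridine to pseudouridine. The small-subunit processome, a very large complex that includes the UTP and IMP proteins, folds and cuts the part that becomes the small subunit, while other factors mature the large subunit. Salivary glands secrete much protein, which their cells make on ribosomes.

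The tissue was the submandibular gland, a large salivary gland, of mice whose strain is given as CH3. All mice were 1 year of age, and the glands were taken 300 days after treatment. NonIR glands (n = 3) were not irradiated, and the labels do not say whether they received a vector. PreIR-GFP glands (n = 5) were injected with AAV2-GFP, an adeno-associated virus carrying green fluorescent protein, 10 days before irradiation. PreIR-NTN glands (n = 5) received Cere-120 (AAV2-NRTN), the same type of vector carrying the growth factor neurturin, at the same time. Neither the promoter of the vectors nor the radiation dose was given in the sources used here. Irradiation and vector therefore cannot be told apart in either comparison with NonIR, and those comparisons share the same 3 NonIR libraries. No label says that replicates are separate animals, so p-values measure the spread between these libraries, which may be technical.

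Libraries held 9724301 to 16771003 reads in genes, of which 14563 to 21404 fell in members. Levels below are CPM, which are reads brought to the same library size, adjusted by the trimmed mean of M-values (TMM), and they are compared between libraries, not between genes. The glands carried the defining products of the tissue: 15 acinar marker genes summed to between 66783 and 113557 CPM in every library, and 17 granular tubule genes to between 15323 and 68262 CPM. Rows for an EGFP transgene and an AAV2 sequence had 0 reads in all 13 libraries, so they do not check the vector labels. In whole glands, fewer cells of a type and less RNA per cell cannot be told apart.

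No member passed the test in any of the 3 comparisons. Of the 46 members, 45 had enough reads to be tested. With edgeR's quasi-likelihood F test and Benjamini-Hochberg adjustment over all 14727 genes tested, 0 of 45 were called at an adjusted p under 0.05 in PreIR-GFP against NonIR (0.034% of all genes tested were called), 0 in PreIR-NTN against NonIR (0.0204%) and 0 in PreIR-NTN against PreIR-GFP (0.0204%). DESeq2, run on the same genes, called 2 members in PreIR-GFP against NonIR (Polr1b and Nol7; 0.462% of all genes), 1 in PreIR-NTN against NonIR (Utp14a; 0.21%) and 0 in PreIR-NTN against PreIR-GFP (0.265%). The calls of limma-voom, and of limma on the deposited normalised values, included 0 members in each comparison.

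At an unadjusted p under 0.05, edgeR held 5 members in PreIR-GFP against NonIR, which is 11.1% of the 45 beside 8.78% of all genes tested. In PreIR-NTN against NonIR it held 6 (13.3% beside 7.97%), and in PreIR-NTN against PreIR-GFP 1 (2.22% beside 6.08%). The libraries of the groups did not overlap for 4 members in PreIR-GFP against NonIR (8.89% beside 5.14%), for 6 in PreIR-NTN against NonIR (13.3% beside 6.52%) and for 0 in PreIR-NTN against PreIR-GFP (1.11% of all genes). The median log2 fold change of the 45 members was 0.06 in PreIR-GFP against NonIR, 0.06 in PreIR-NTN against NonIR and 0.01 in PreIR-NTN against PreIR-GFP. Over all genes tested it was 0.02, 0.0029 and -0.01. With 1 library left out, the members' median ran from -0.01 to 0.10, from 0.01 to 0.10 and from -0.04 to 0.05. It was below 0 in PreIR-GFP against NonIR without NonIR 2 (-0.01) or PreIR-GFP 3 (-0.0059), and in PreIR-NTN against PreIR-GFP without PreIR-NTN 5 (-0.04) or PreIR-GFP 2 (-0.00455). Fold changes were above 0 for 27, 27 and 23 of the 45 members, beside 52.7%, 50.5% and 47.3% of all genes.

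**Figure D1:**
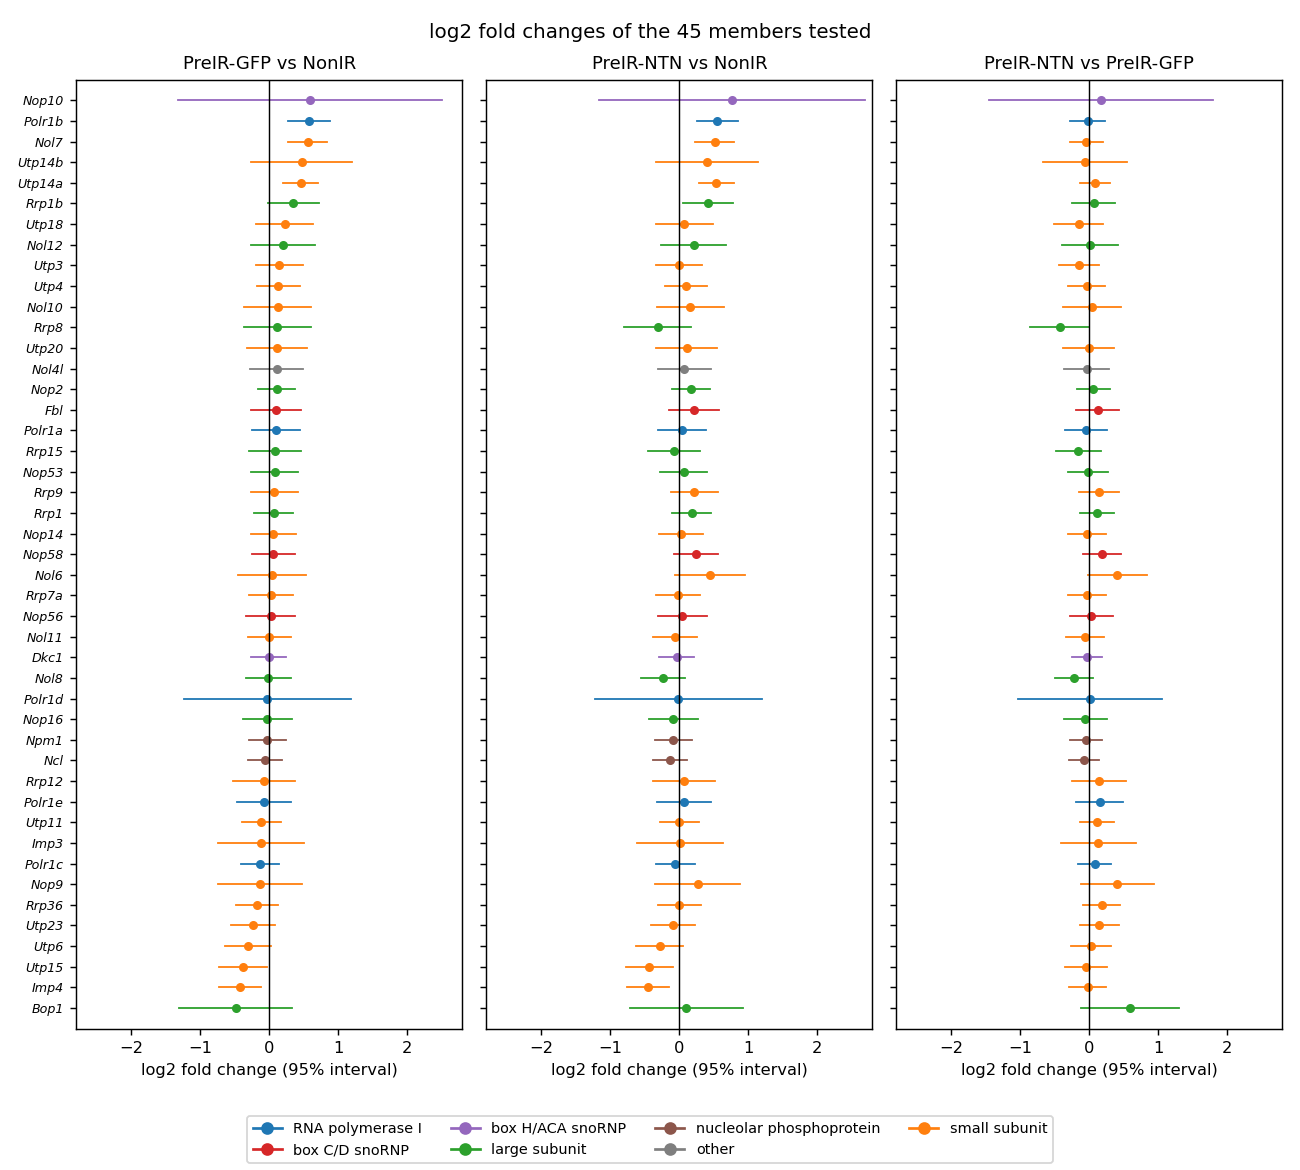
Fitted log2 fold changes of the 45 members tested (points, coloured by role) with 95% intervals (lines), in 1 panel per comparison, ordered by the value in PreIR-GFP against NonIR. Most points lie close to 0, and Nop10, Polr1d and Bop1 have the widest intervals.

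Of the 5 RNA polymerase I subunits, only Polr1b (20%) had an unadjusted p under 0.05 by edgeR against NonIR, in both irradiated groups. Of all genes tested, 8.78% and 7.97% did. The subunits were not tested against each other. Polr1b encodes the large catalytic subunit that works beside Polr1a. Its level was 23.4, 19.3 and 22.6 CPM in the 3 NonIR libraries. It was 29.4, 30.8, 32.2, 29.6 and 40.2 CPM in PreIR-GFP and 30.8, 35.3, 30.5, 28.0 and 35.2 CPM in PreIR-NTN. Every irradiated library was thus above every NonIR library, and both irradiated groups covered much the same range. On the log2 scale the fitted difference was 0.57 in PreIR-GFP against NonIR (SE 0.14, edgeR adjusted p = 0.232) and 0.55 in PreIR-NTN against NonIR (SE 0.14, edgeR adjusted p = 0.369). Between the irradiated groups it was -0.02 (SE 0.12). DESeq2 gave Polr1b an adjusted p of 0.0490 in PreIR-GFP against NonIR.

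Polr1a, the largest subunit, averaged 9.62 ± 0.747 CPM in NonIR (SD, n = 3), 10.2 ± 1.65 in PreIR-GFP (SD, n = 5) and 9.89 ± 1.32 in PreIR-NTN (SD, n = 5). Its interval for PreIR-GFP against NonIR ran from -0.26 to 0.44 on the log2 scale, so a difference as large as that fitted for Polr1b lies outside it. Polr1c, which RNA polymerase III also uses, had log2 fold changes of -0.14 and -0.06 against NonIR, and Polr1e, a subunit specific to RNA polymerase I, had -0.08 and 0.07. Polr1d, the partner of Polr1c, averaged 34.3, 33.7 and 33.9 CPM in NonIR, PreIR-GFP and PreIR-NTN, but its libraries ranged from 10.1 to 63.8 CPM. Its fold changes were within 0.03 of 0 with standard errors of 0.49 to 0.57.

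In the box C/D snoRNPs, none of the 3 members differed in transcript level beyond the spread between libraries. Fbl is fibrillarin, the methyltransferase, and Nop56 and Nop58 are the related proteins that hold the guide RNA. The group's median log2 fold change was 0.06 in PreIR-GFP against NonIR, 0.21 in PreIR-NTN against NonIR and 0.12 in PreIR-NTN against PreIR-GFP. Nop58 had the lowest p of the 3, in PreIR-NTN against NonIR. It measured 35.0, 36.3 and 31.2 CPM in NonIR, 40.2, 30.8, 38.7, 30.5 and 37.4 in PreIR-GFP, and 37.0, 48.7, 37.3, 33.4 and 44.97 in PreIR-NTN. PreIR-NTN 2 and PreIR-NTN 5 were above all other libraries, while the other 3 PreIR-NTN libraries lay among the other groups. The log2 fold change of Nop58 was 0.24 (SE 0.15, adjusted p = 0.737) in PreIR-NTN against NonIR. Nop56 averaged 18.4 ± 1.99, 18.6 ± 3.26 and 18.9 ± 3.09 CPM in the same order of groups. The coding sequences of Nop56 and Nop58 are 60.9% identical and share no run longer than 15 bases.

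Of the 2 members in the box H/ACA snoRNPs, the transcript of 1 was steady between libraries and that of 1 was not. Dkc1, dyskerin, is the pseudouridine synthase, and Nop10 is a very small protein bound to it. Dkc1 averaged 38.8 ± 4.79 CPM in NonIR, 38.6 ± 2.58 in PreIR-GFP and 37.7 ± 2.84 in PreIR-NTN. The interval of its log2 fold change ran from -0.26 to 0.25 in PreIR-GFP against NonIR and from -0.29 to 0.21 in PreIR-NTN against NonIR. Nop10 measured 32.0, 63.3 and 87.5 CPM in NonIR, 16.4, 61.6, 234, 122 and 25.4 in PreIR-GFP, and 157, 23.3, 45.05, 84.1 and 206 in PreIR-NTN. Each group held both low and high libraries, so the groups overlapped fully. The log2 fold change of Nop10 was 0.59 (SE 0.90, adjusted p = 0.910) in PreIR-GFP against NonIR and 0.76 (SE 0.91, adjusted p = 0.881) in PreIR-NTN against NonIR. Between the irradiated groups it was 0.17 (SE 0.76), and its sign turned without PreIR-NTN 5 (-0.25), PreIR-GFP 1 (-0.06), PreIR-NTN 1 (-0.04) or PreIR-GFP 5 (-0.03). Without PreIR-GFP 3, the value in PreIR-GFP against NonIR was -0.11. In PreIR-NTN against NonIR it was 0.34 without PreIR-NTN 5 and 1.11 without NonIR 3.

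Of the 22 small-subunit factors, 4 (18.2%) had an unadjusted p under 0.05 against NonIR in both irradiated groups, beside 8.78% and 7.97% of all genes tested: Nol7 and Utp14a were higher and Imp4 and Utp15 lower. The median log2 fold change of the 22 was 0.03 in PreIR-GFP against NonIR, 0.05 in PreIR-NTN against NonIR and 0.0048 in PreIR-NTN against PreIR-GFP. In the last comparison 0 of the 22 had an unadjusted p under 0.05.

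Nol7 is a nucleolar protein needed for early cutting of the ribosomal RNA precursor. It measured 65.5, 73.8 and 70.6 CPM in NonIR. PreIR-GFP libraries held 119, 105, 104, 97.6 and 88.3 CPM, and PreIR-NTN libraries 99.1, 87.1, 111, 88.7 and 113 CPM. The 10 irradiated libraries all lay above the 3 NonIR libraries. Fitted log2 fold changes of Nol7 were 0.55 in PreIR-GFP against NonIR (SE 0.13, edgeR adjusted p = 0.214) and 0.51 in PreIR-NTN against NonIR (SE 0.13, edgeR adjusted p = 0.369). DESeq2 gave an adjusted p of 0.0497 in the former. Between the irradiated groups the log2 fold change of Nol7 was -0.04 (SE 0.11). Nol7 shares 453 bases of its exons (16.5%) with Ranbp9 on the opposite strand, and no source used here gives the strand setting of the counting. Ranbp9 averaged 4.08 CPM, and its log2 fold changes against NonIR were 0.12 and 0.13.

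Utp14a is a processome protein that activates an RNA helicase. It measured 38.5, 32.0 and 35.9 CPM in NonIR, 48.8, 48.5, 49.1, 44.1 and 52.0 in PreIR-GFP, and 45.7, 58.4, 49.4, 48.6 and 54.6 in PreIR-NTN. Again no irradiated library fell within the NonIR range. Its log2 fold change was 0.45 in PreIR-GFP against NonIR (SE 0.12, edgeR adjusted p = 0.2495) and 0.53 in PreIR-NTN against NonIR (SE 0.12, edgeR adjusted p = 0.266). DESeq2 gave an adjusted p of 0.0106 in the latter. Between the irradiated groups it was 0.08 (SE 0.10). Utp14a shares 473 bases of its exons (11.5%) with 9530027J09Rik on the opposite strand, which averaged 3.87 CPM.

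Utp14b, a retrotransposed copy of Utp14a known for its need in sperm development, stood at 0.233 CPM per kilobase of exon beside 11.3 for Utp14a. Its level was 1.404 ± 0.231 CPM in NonIR, 1.94 ± 0.757 in PreIR-GFP and 1.86 ± 0.459 in PreIR-NTN. Its groups overlapped, and the log2 fold changes against NonIR were 0.47 (SE 0.35) and 0.40 (SE 0.35). Utp14b shares 244 bases of its exons (3.18%) with Acsl3 on the same strand, which averaged 10.7 CPM. The coding sequences of Utp14a and Utp14b are 77.9% identical. Only reads that lie wholly within a shared run could be assigned to either copy. Reads longer than the longest shared run would also cover bases that differ between the copies. That run is 30 bases long and is shown here:

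Utp14a and Utp14b shared run: agtgaagatgagggggacagtgatggagaa

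Imp4 and Imp3 bind the snoRNA that guides the processome. Imp4 measured 172, 149 and 124.5 CPM in NonIR. PreIR-GFP libraries held 139, 98.5, 102, 110.5 and 100.5 CPM and PreIR-NTN libraries 94.2, 124, 107, 115 and 99.7 CPM. PreIR-GFP 1 lay inside the NonIR range, and the other 9 irradiated libraries were below it. For Imp4 the log2 fold change was -0.43 in PreIR-GFP against NonIR (SE 0.15, edgeR adjusted p = 0.395) and -0.46 in PreIR-NTN against NonIR (SE 0.15, edgeR adjusted p = 0.459). Imp3, by contrast, averaged 12.3 ± 4.09, 11.3 ± 3.66 and 12.4 ± 2.94 CPM in the 3 groups, with a log2 fold change of -0.13 (SE 0.29) in PreIR-GFP against NonIR. Imp3 was singled out after its values were seen.

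Utp15 belongs to the processome part that also supports transcription of the precursor. It measured 20.8, 18.2 and 17.98 CPM in NonIR, 17.5, 12.3, 14.9, 15.6 and 12.7 in PreIR-GFP, and 16.1, 15.5, 12.7, 15.4 and 10.5 in PreIR-NTN. The irradiated libraries were all below the NonIR libraries, although PreIR-GFP 1 came close to them. PreIR-GFP against NonIR gave Utp15 a log2 fold change of -0.38 (SE 0.16, edgeR adjusted p = 0.518) and PreIR-NTN against NonIR a value of -0.44 (SE 0.16, edgeR adjusted p = 0.533). Utp6, another processome protein, had log2 fold changes of -0.31 and -0.29 with overlapping groups.

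**Figure D2:**
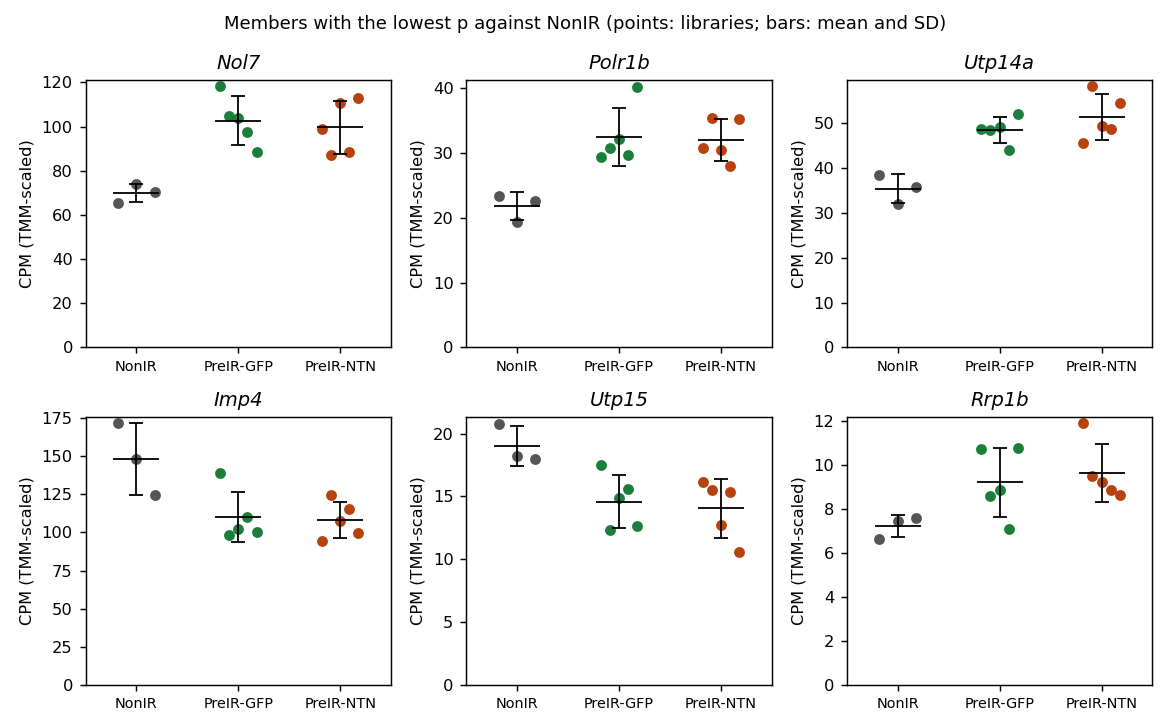
Level of 6 members in each library, in TMM-scaled CPM, by group (points), with the group mean and SD (black bars). Nol7, Polr1b and Utp14a lie higher in all 10 irradiated libraries than in the 3 NonIR libraries and Utp15 lies lower, while Imp4 and Rrp1b overlap between NonIR and PreIR-GFP.

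The sequences just upstream of the members with the lowest p against NonIR, together with that of Nop10, are shown because these genes differ in what they hold there. They come from RefSeq's promoter windows on GRCm38.p6, 5′ to 3′ on the gene's own strand. Each was cut to the 150 bases nearest RefSeq's start of the gene that lie outside the gene's coordinates given here. For Nol7 and Imp4 the stretch stops short of those coordinates, so the bases nearest the gene are not printed. Capitals mark a match to the E-box CACGTG or the ETS core CCGGAAG, or the longest run that any pair of these stretches shares. For Nol7 (gene on chr13:43398390-43407097, plus strand) the stretch is chr13:43398226-43398375. For Polr1b (chr2:129100995-129126594, plus strand) it is chr2:129100845-129100994, and for Utp14a (chrX:48256862-48282453, plus strand) chrX:48256712-48256861. For Imp4 (chr1:34439851-34449356, plus strand) it is chr1:34439679-34439828, for Utp15 (chr13:98246845-98263041, minus strand) chr13:98263042-98263191, and for Nop10 (chr2:112261926-112263269, plus strand) chr2:112261776-112261925.

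Nol7: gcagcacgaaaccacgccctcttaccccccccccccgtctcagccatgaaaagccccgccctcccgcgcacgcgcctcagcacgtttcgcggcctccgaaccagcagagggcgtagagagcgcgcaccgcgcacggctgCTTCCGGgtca
Polr1b: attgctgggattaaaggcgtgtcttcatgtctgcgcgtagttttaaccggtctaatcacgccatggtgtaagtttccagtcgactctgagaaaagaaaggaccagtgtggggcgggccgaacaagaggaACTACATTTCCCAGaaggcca
Utp14a: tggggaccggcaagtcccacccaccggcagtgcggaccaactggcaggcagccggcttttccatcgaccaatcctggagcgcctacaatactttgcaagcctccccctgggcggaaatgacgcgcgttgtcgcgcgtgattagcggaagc
Imp4: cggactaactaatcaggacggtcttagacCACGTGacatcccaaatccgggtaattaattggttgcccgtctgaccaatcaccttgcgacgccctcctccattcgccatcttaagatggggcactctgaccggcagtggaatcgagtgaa
Utp15: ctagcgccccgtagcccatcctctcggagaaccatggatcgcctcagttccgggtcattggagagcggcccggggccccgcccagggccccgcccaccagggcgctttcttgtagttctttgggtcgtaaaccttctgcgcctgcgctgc
Nop10: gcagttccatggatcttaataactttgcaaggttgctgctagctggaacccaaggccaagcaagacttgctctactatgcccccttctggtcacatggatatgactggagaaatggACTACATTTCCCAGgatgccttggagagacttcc

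Polr1b and Nop10 share the 14 bases ACTACATTTCCCAG, close to the gene in both, and no other pair of these stretches shares more than 10. Nol7 holds the reverse complement of the ETS core CCGGAAG, a motif of ETS factors common at housekeeping promoters. Imp4 holds the E-box CACGTG, which Myc and related factors can bind, and the stretches of Utp14a and Utp15 have no capitals. RefSeq windows of 300 bases were matched for 36 of the 46 members, and each motif was searched on both strands. CACGTG was present for 8 of 36 (22.2%), beside 8.09% of all 27025 genes with a window and 11.4% of tested coding genes with one. CCGGAAG was present for 11 of 36 (30.6%, beside 9.93% and 19.8%), and TATAAA for 4 (11.1%, beside 15.7% and 9.03%). The shared run was chosen because Nop10 and Polr1b both hold it, so its presence for them was fixed beforehand and its share among members measures nothing. It was present for no other member of the 36, for 0.333% of all genes with a window and for 0.7225% of tested coding genes with one. Of the 6 genes shown, only Imp4 had the E-box in its window, so the members with the lowest p against NonIR did not share it.

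Among the 10 large-subunit factors, Rrp1b had an unadjusted p under 0.05 in PreIR-NTN against NonIR. It binds protein phosphatase in the nucleolus and acts in cutting the precursor. Rrp1b measured 6.64, 7.43 and 7.60 CPM in NonIR, 10.7, 8.58, 8.84, 7.08 and 10.8 in PreIR-GFP, and 11.9, 9.50, 9.21, 8.85 and 8.64 in PreIR-NTN. All PreIR-NTN libraries were above NonIR, and among PreIR-GFP libraries PreIR-GFP 4 lay inside the NonIR range. Its fitted log2 fold change was 0.41 in PreIR-NTN against NonIR (SE 0.17, edgeR adjusted p = 0.581) and 0.35 in PreIR-GFP against NonIR (SE 0.17, edgeR adjusted p = 0.589). Its paralogue Rrp1 averaged 38.2 ± 3.45, 39.9 ± 4.98 and 43.2 ± 4.93 CPM, with log2 fold changes of 0.06 and 0.18 against NonIR. The coding sequences of Rrp1 and Rrp1b are 70.2% identical, and their longest shared run is 18 bases.

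The comparison of PreIR-NTN with PreIR-GFP asks what neurturin adds in irradiated glands. Its lowest p among members belonged to Rrp8, a methyltransferase of large-subunit ribosomal RNA. Rrp8 measured 5.00, 7.59, 7.12, 9.71 and 9.81 CPM in PreIR-GFP and 5.74, 6.57, 4.40, 7.11 and 5.23 in PreIR-NTN, beside 7.32, 5.65 and 8.74 in NonIR. PreIR-GFP 1 was among the lowest libraries, so the groups overlapped. Rrp8 had a log2 fold change of -0.43 (SE 0.20, edgeR adjusted p = 0.811).

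Next in that comparison stood Nol6, a processome scaffold, with 6.96, 7.98, 7.82, 9.98 and 12.5 CPM in PreIR-GFP and 15.6, 12.96, 11.6, 10.3 and 9.36 in PreIR-NTN. Only PreIR-NTN 1 and PreIR-NTN 2 exceeded every PreIR-GFP library. The log2 fold change of Nol6 was 0.40 (SE 0.20, adjusted p = 0.836). Bop1, a scaffold of large-subunit assembly together with Pes1 and Wdr12, had the largest fitted difference, 0.59 (SE 0.34, adjusted p = 0.870). It measured 16.3, 10.8, 11.02, 26.1 and 20.3 CPM in PreIR-GFP and 37.5, 27.0, 23.9, 21.2 and 17.8 in PreIR-NTN. NonIR held both 10.6 and 36.9 CPM of Bop1, nearly the whole range of the series. Nop9, which binds the small-subunit precursor, had 0.40 (SE 0.25) and shares 29.9% of its exons with Cideb. Log2 fold changes of Nol8, Nop58, Rrp36, Utp3, Utp23 and Rrp15 in this comparison lay between -0.22 and 0.18.

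Other members gave narrow intervals around 0. Ncl, nucleolin, averaged 99.2 ± 6.72 CPM in NonIR, 94.9 ± 8.56 in PreIR-GFP and 90.2 ± 7.47 in PreIR-NTN. Its log2 fold change was -0.06 (95% interval -0.31 to 0.18) in PreIR-GFP against NonIR and -0.14 (-0.39 to 0.11) in PreIR-NTN against NonIR. Npm1, nucleophosmin, a histone and ribosome chaperone, averaged 66.2 ± 5.53, 64.8 ± 6.92 and 62.3 ± 6.18 CPM. Its log2 fold changes were -0.03 (-0.30 to 0.23) and -0.09 (-0.35 to 0.18). A difference of 0.55, the size fitted for Nol7, lies outside each of these 4 intervals. Nol3, an inhibitor of apoptosis that shares only its name with this group, was too low to test, at 0 to 0.860 CPM. Its 0 reads in PreIR-GFP 1 allow up to 0.218 CPM, counting error only, and 48.2% of its exons overlap another gene. Nol4l averaged 12.2 ± 1.19, 13.1 ± 3.02 and 12.8 ± 1.60 CPM.

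The spread between libraries differed widely among members. Over the 13 libraries, the SD of log2 CPM was highest for Nop10 (1.23), Polr1d (0.79), Bop1 (0.61), Nop9 (0.45) and Imp3 (0.44). Nop10, Polr1d and Imp3 have short coding sequences, and Bop1 and Nop9 do not (2196 and 1908 bases). Nop16, with a short coding sequence of 543 bases, had an SD of only 0.22. The SD of Nop10 was larger than or equal to that of 98.8% of all genes tested, that of Polr1d 93.2% and that of Bop1 85.2%. At the other end stood Dkc1 (0.611%) and Ncl (1.29%), among the steadiest transcripts of the gland. Of the 45 members, 36 had an SD below the median of all genes tested, and the median SD was 0.22 for members and 0.33 for all genes. Read support differed too: the median was 19.6 CPM over members and 8.26 CPM over all genes tested, not corrected for length.

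**Figure D3:**
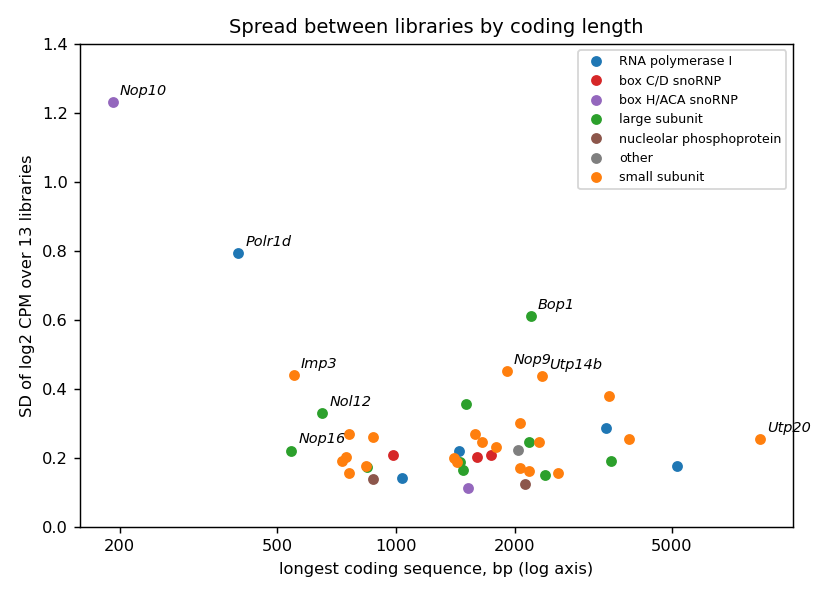
SD of log2 CPM over the 13 libraries (vertical axis) against the length of the longest coding sequence in bases (horizontal log axis) for the 45 members tested, coloured by role. Nop10 and Polr1d, the shortest coding sequences, have the largest SDs, and Bop1 stands apart from other members of its length.

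Nop10 (coding sequence 192 bases) and Polr1d (399 bases) varied together with other short genes. A level of short-coding genes was taken for each library as the median, over 868 other genes with a coding sequence of at most 450 bases, of log2 CPM minus the gene's mean. It ran from -0.57 in PreIR-NTN 2 to 0.42 in PreIR-NTN 5. Its 4 lowest libraries were PreIR-NTN 2, PreIR-GFP 1, PreIR-GFP 5 and NonIR 1, so every group held at least 1. Across the 13 libraries, Pearson's r with this level was 0.97 for Nop10 (Spearman's rho 0.99), 0.94 for Polr1d (0.89), 0.88 for Imp3 (0.73, coding sequence 552 bases) and 0.84 for Nol12 (0.75, 651 bases). Without the libraries farthest from the median of that level (PreIR-NTN 2 and PreIR-GFP 1), r was 0.95, 0.93, 0.79 and 0.77. These values are descriptions: the level and the members come from the same libraries with the same scaling. An r above 0.9 was found for 2 of 45 members (4.44%) and for 4.38% of all genes tested. Bop1 (r 0.15) and Ncl (r -0.16) did not follow this level, and Nop16, with a coding sequence of 543 bases, had an r of 0.31 with it.

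**Figure D4:**
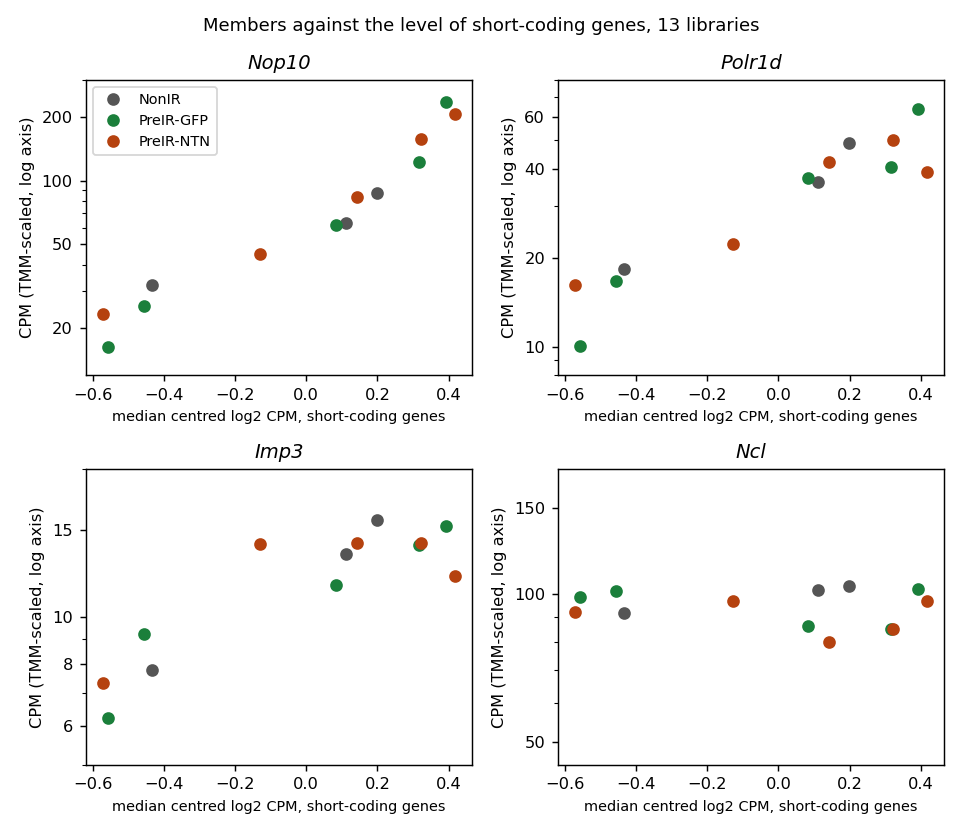
Level of 4 members in CPM (vertical log axis) against the level of short-coding genes in each of the 13 libraries (horizontal axis, median centred log2 CPM), coloured by group. Nop10 and Polr1d go up with that level across groups, Imp3 does so less steeply, and Ncl stays between 79.97 and 104 CPM.

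Other library measures varied alongside. The 10 most abundant genes took 29.7% of reads in PreIR-GFP 1 and 55.5% in PreIR-GFP 3, the libraries with the lowest and highest Nop10. The TMM factors of these libraries were 1.42 and 0.768, the largest and smallest of the 13. The median centred log2 CPM of 79 cytosolic ribosomal protein genes was -1.16 in PreIR-GFP 1 and 1.21 in PreIR-GFP 3. Any of the 79 with a coding sequence of at most 450 bases are also among the 868 genes behind the level of short-coding genes. The part of these measures in the spread of Nop10 was not tested. The level of short-coding genes was also added to the fit as a covariate. The log2 fold change of Nop10 was then 0.11 in PreIR-GFP against NonIR (edgeR adjusted p = 0.891) and 0.21 in PreIR-NTN against NonIR (0.767). In PreIR-NTN against PreIR-GFP it was 0.10 (0.940). Nop10 and the covariate come from the same libraries and go together at r 0.97. The covariate fit therefore cannot show what lies behind the spread of Nop10. Nol7, Polr1b and Utp14a stood in that fit at 0.56, 0.57 and 0.45 in PreIR-GFP against NonIR, with adjusted p of 0.0887, 0.0949 and 0.115.

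**Figure D5:**
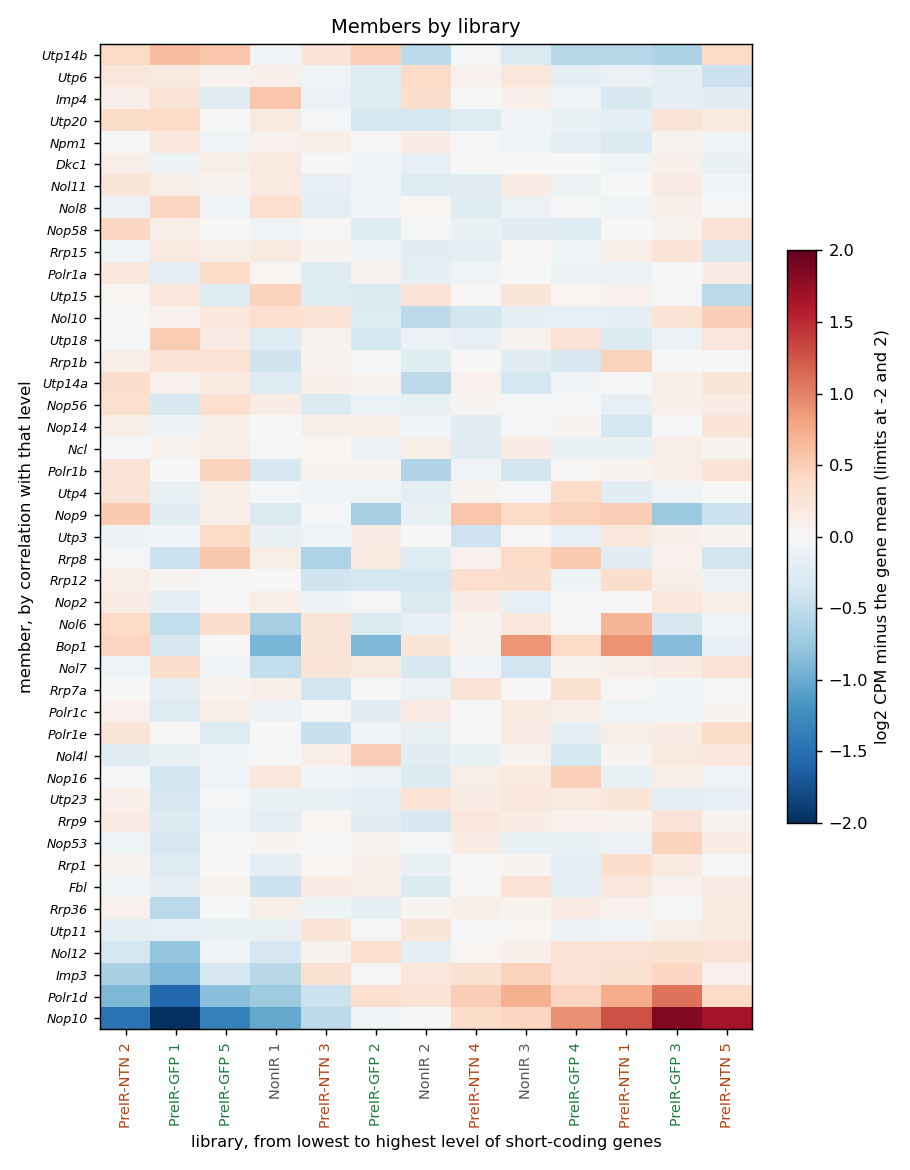
Log2 CPM minus the gene's mean (colour, clipped at -2 and 2) for the 45 members tested (vertical axis, ordered by Pearson's r with the level of short-coding genes) in the 13 libraries (horizontal axis, ordered by that level, names coloured by group). Nop10, Polr1d and Imp3 at the bottom go from low to high across libraries of all 3 groups, and Bop1 varies without that order.

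Compared per kilobase of exon, the most abundant member was Nop10 at 80.4 CPM per kilobase over all 13 libraries, ahead of Nop16 (37.5), Nol7 (34.1) and Npm1 (24.1). Its SD over the libraries was 64.3 CPM per kilobase, so its lead over the next 3 was within its own spread. Nop2, a methyltransferase of large-subunit RNA, followed at 16.6 and Imp4 at 13.8. Nop16 is a large-subunit factor that averaged 71.3 ± 12.7, 69.9 ± 15.8 and 67.0 ± 4.43 CPM in NonIR, PreIR-GFP and PreIR-NTN. Among members tested, the lowest were Utp20 at 0.762 and Utp14b at 0.233 CPM per kilobase. Annotated exons include long untranslated ends in several genes, and the order depends on them: per kilobase of coding sequence, Imp4 ranked 2 and Nop2 ranked 18.

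A wider list of 90 other genes of ribosome biogenesis was followed for comparison, of which 88 were tested. In each comparison 0 of these 88 passed edgeR's test at an adjusted p under 0.05. At an unadjusted p under 0.05 there were 2 in PreIR-GFP against NonIR (2.27%, beside 8.78% of all genes tested), 4 in PreIR-NTN against NonIR (4.55%, beside 7.97%) and 5 in PreIR-NTN against PreIR-GFP (5.68%, beside 6.08%). Each share was below that of all genes. Their median log2 fold changes were -0.01, 0.05 and 0.03. Ltv1, which helps export and mature the small subunit, averaged 22.1 ± 2.39 CPM in NonIR, 16.6 ± 1.58 in PreIR-GFP and 20.5 ± 3.16 in PreIR-NTN, with a log2 fold change of -0.41 (SE 0.15, adjusted p = 0.437) in PreIR-GFP against NonIR. Noc2l, a nucleolar protein of the large-subunit pathway, had 0.48 and 0.52 against NonIR, and Noc3l, a large-subunit assembly factor, -0.40 and -0.46. Mdn1, the giant ATPase that strips factors from the large subunit, had 0.31 and 0.37, Wdr43, a processome protein, had 0.38 in PreIR-GFP, and Rcl1 and Rrs1 had -0.45 and 0.61 in PreIR-NTN. In PreIR-NTN against PreIR-GFP, the lowest p belonged to Bysl (0.66, SE 0.26, adjusted p = 0.743), a factor of small-subunit maturation. The helicase Ddx21 (0.44), Wdr18 (0.64) and Wdr36 (0.35) were next to it together with Ltv1 (0.31).

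Marker genes of several cell types were read by counts, medians and sums, without a set test. All genes of the lists given here were tested. Of 14 duct genes, 12 had a log2 fold change below 0 in both irradiated groups against NonIR, with medians of -0.14 in PreIR-GFP and -0.18 in PreIR-NTN. Their sum was 1316 to 1566 CPM in NonIR, 1197 to 1342 in PreIR-GFP and 1232 to 1466 in PreIR-NTN. Of the 17 granular tubule genes, 15 were below 0 in both, with medians of -0.68 and -0.36, and their sum was 49735 to 68262, 15323 to 67053 and 30026 to 61293 CPM in the same order of groups. Most genes of the duct and granular tubule lists thus had fitted values below 0, but 0 passed edgeR's test. The lowest adjusted p was 0.483 and 0.623 for duct, and 0.375 and 0.637 for granular tubule. The medians were no larger in size than the median standard error, 0.19 for duct and 0.68 and 0.69 for granular tubule. The granular tubule median of centred log2 CPM was -2.77, 0.81, -0.07, 0.78 and -1.43 in PreIR-GFP libraries, beside 0.21 to 0.84 in NonIR. Of all genes tested, 52.7% in PreIR-GFP and 50.5% in PreIR-NTN had a log2 fold change above 0 against NonIR. Of the 15 acinar genes, 11 were above 0 in PreIR-GFP and 10 in PreIR-NTN, with medians of 0.14 and 0.25. These medians were below the median standard error of 0.33 for a gene. The acinar log2 fold changes ran from -4.35 to 1.57 in PreIR-GFP and from -6.44 to 2.17 in PreIR-NTN. In each comparison 3 (20%, beside 8.78% and 7.97% of all genes tested) had an unadjusted p under 0.05 by edgeR. Of these, 1 was higher and 2 were lower, and 0 passed adjustment. Of 9 B and plasma cell genes, 9 were above 0 in PreIR-GFP and 5 in PreIR-NTN.

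The 12 macrophage genes summed to 140.1 to 149.5 CPM in NonIR, 153 to 236.0 in PreIR-GFP and 101 to 144 in PreIR-NTN. Of these 12, 11 had a log2 fold change above 0 in PreIR-GFP against NonIR and 11 had one below 0 in PreIR-NTN against PreIR-GFP. The 8 fibroblast genes summed to 242 to 289 CPM in NonIR, 250.4 to 403 in PreIR-GFP and 154 to 203 in PreIR-NTN. Of these, 7 had a value above 0 in PreIR-GFP against NonIR, 7 had one below 0 in PreIR-NTN against NonIR, and 8 of 8 had one below 0 in PreIR-NTN against PreIR-GFP, where 1 passed edgeR's test (adjusted p = 0.0175). The part of cell composition in the members' values was not tested.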

How the data were processed

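Per the labels' protocols, total RNA was purified with a column kit, made into cDNA with a SMART-Seq reaction and sequenced from Nextera XT libraries. The submitters' processing notes name STAR 2.5.2a, the builds GRCm38.p3 and mm10, and the packages limma, edgeR and DESeq2. Neither the counting tool nor its strand setting was given in the sources used here. Other aligners and triplicates appear in the series description, and groups here follow the labels of each sample.

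The authors deposited raw counts per gene for 13 libraries, with 48733 rows, of which 24 name spike-ins or transgenes (0 to 9 reads per library) and were left out. The authors also deposited a normalised signal table, in which each library's counts are multiplied by 1 constant per library; it gave the gene names, and its values were used in 1 alternative only. A library's 9724301 to 16771003 reads set the precision of low genes, and the labels name no molecular identifiers to tell PCR copies apart, so floors cover counting error only.

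Genes were kept by filterByExpr (minimum count 10) and scaled by TMM, and edgeR 4.0.16 (R 4.3.3) fitted quasi-likelihood F tests (robust, legacy off) to the 13 libraries together, each group with its own mean. The two-sided p-values were adjusted by Benjamini-Hochberg over 14727 genes, with 0.05 as the threshold. The residual degrees of freedom were 10. Intervals of 95% use these and the median prior of 5.64. Log2 CPM used a prior count of 2. Alternatives used DESeq2 1.42.0 and limma 3.58.1, other scalings, no filter, the compared groups alone, a replicate block and libraries left out. The covariate fit and the run shared by Polr1b and Nop10 were added after the data were seen. The code was tested on simulated data.

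The members, role groups and lists were chosen with earlier results of these data known. Named members are, in each comparison, the 10 with the lowest p, in each role group the most abundant per kilobase and the lowest p, and 3 paralogue pairs. Polr1a, Polr1c, Polr1e, Dkc1, Imp3, Nol12, Nop2, Utp20 and Nol3 fall outside this rule, and the choice to print them came after looking at their values. For the wider list the 5 with the lowest p per comparison are named. Coordinates and exons are from GENCODE on GRCm38, promoters from RefSeq on GRCm38.p6.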

Additional observations from a re-analysis of the deposited data

Results flagged for a closer look

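In 3 of 54 groups of 5 libraries, 1 library lay far from the other 4 by Dixon's test, which chance alone gives in about 1 of 20 groups. Polr1b stood at 40.2 CPM in PreIR-GFP 5, above the next library at 32.2 CPM. Rrp1 stood at 51.9 CPM in PreIR-NTN 1, above 42.0 CPM in the next. Rrp1b stood at 11.9 CPM in PreIR-NTN 1, above 9.50 CPM in the next. Without PreIR-GFP 5, the log2 fold change of Polr1b in PreIR-GFP against NonIR was 0.48, and without PreIR-NTN 1, that of Rrp1b in PreIR-NTN against NonIR was 0.33.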

How the results depend on the processing

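Of edgeR's results, the members' count of 0 calls held under every alternative with edgeR or limma and under each omission of 1 library. It changed with DESeq2, to 2 in PreIR-GFP against NonIR and 1 in PreIR-NTN against NonIR. Counts over all genes, 5, 3 and 3 in PreIR-GFP against NonIR, PreIR-NTN against PreIR-GFP and PreIR-NTN against NonIR, stayed within 1.5 times of these values under 3, 8 and 13 of 23 alternatives. The cause was not tested.

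In PreIR-GFP against NonIR, all genes called were 0 with upper-quartile scaling (1259 at an unadjusted p under 0.05), 0 with limma-voom (1143), 0 with the 2 groups alone (1007), 20 with no filter, 68 with DESeq2, 1 without PreIR-GFP 1 and 2 together and 35 with the covariate, and 0 to 17 when 1 library was left out (17 without PreIR-GFP 1). In PreIR-NTN against PreIR-GFP they were 10 with no filter, 39 with DESeq2, 0 with limma-voom (833), 0 with the 2 groups alone (815), 1 without PreIR-GFP 1 and 2 and 17 with the covariate, and 0 to 11 when 1 library was left out (11 without PreIR-GFP 4). In PreIR-NTN against NonIR they were 31 with DESeq2, 1 with limma-voom, 5 without PreIR-GFP 1 and 2 and 6 with the covariate, and 0 to 4 when 1 library was left out.

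Members at an unadjusted p under 0.05 in PreIR-NTN against PreIR-GFP, 1 with edgeR, numbered 2 with no filter, 0 with limma-voom, 0 with limma on the deposited values and 3 with the 2 groups alone, and 0 to 3 when 1 library was left out. In PreIR-GFP against NonIR they numbered 4 to 6 and in PreIR-NTN against NonIR 4 to 8 over all alternatives. Fold changes near 0 often changed sign: under at least 1 alternative this held for 23 of 45 members in PreIR-GFP against NonIR, 24 in PreIR-NTN against PreIR-GFP and 19 in PreIR-NTN against NonIR. Among the 10 members with the lowest p in each comparison it held for none. For Nop10 the value was -0.25 in PreIR-NTN against PreIR-GFP without PreIR-GFP 1 and 2 together, with a range of -0.25 to 0.87 when 1 library was left out, -0.11 to 0.95 in PreIR-GFP against NonIR and 0.34 to 1.11 in PreIR-NTN against NonIR.

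Replicate numbers are shared between groups. Over 11 pairs of same-numbered libraries the correlation of their deviations ran from -0.43 to 0.28, with 3 above 0.1. Pairs with different numbers ran from -0.50 to 0.53. No pairing was seen in these values, but they cannot show whether same-numbered libraries share more than a number. With the replicate block, all genes called were 0 in each comparison (1084, 691 and 879 at an unadjusted p under 0.05), members called 0, and members at an unadjusted p under 0.05 numbered 4 in PreIR-GFP against NonIR, 0 in PreIR-NTN against PreIR-GFP and 6 in PreIR-NTN against NonIR.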

Other observations

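Lists next to ribosome biogenesis were read the same way, with edgeR's adjusted p over all genes tested. Of 79 cytosolic ribosomal protein genes tested, 0 were called in each comparison, and 2, 1 and 3 had an unadjusted p under 0.05 in PreIR-GFP against NonIR, PreIR-NTN against PreIR-GFP and PreIR-NTN against NonIR. These are 2.53%, 1.27% and 3.80%, each below the share of all genes tested (8.78%, 6.08% and 7.97%). The 79 genes had median log2 fold changes of 0.38, 0.08 and 0.54, beside a median standard error of 0.59, 0.51 and 0.60 for a gene. The 77 mitochondrial ribosomal protein genes had medians of -0.08, 0.07 and -0.0065. The 12 subunits of RNA polymerase II had 0.09, 0.05 and 0.10, and the 10 of RNA polymerase III -0.0024, -0.09 and -0.03, with 0 called in each.

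Of 16 cell cycle genes tested, 15 had a log2 fold change above 0 in PreIR-NTN against PreIR-GFP, with a median of 0.65. Of the 16, 7 (43.75%, beside 6.08% of all genes tested) had an unadjusted p under 0.05 and 0 passed adjustment (lowest adjusted p = 0.627). The members' median in that comparison was 0.01. The 14 tested genes of Myc, its partners and the mTOR pathway, which are known to drive ribosome synthesis, had medians of 0.16, -0.03 and 0.05 in PreIR-GFP against NonIR, PreIR-NTN against PreIR-GFP and PreIR-NTN against NonIR, with 0 called.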
